A study of Arabidopsis thaliana with 12 samples.

Results

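YUC2 (AT4G13260) and YUC4 (AT5G11320) encode flavin-containing monooxygenases of auxin synthesis in Arabidopsis thaliana. Their transcripts were followed here over 12 arrays through the 1 probe set annotated to each gene. These are 2 of the 22746 probe sets that are not Affymetrix controls, and 2 of the 4 that the platform annotation supplied with the data assigns to a single YUC gene. Both were bright enough on average to enter the tests. The members were chosen by gene, though with earlier results of these data known. All plants were of the ecotype Col-0, and there were 4 groups of 3 arrays. One group was the shoot apical meristem part (SAM), cut from mock plants with a micro knife, grown with 0.1% of the solvent DMSO. Another was the SAM of plants grown on 50 µM L-AOPP (2-aminooxy-3-phenylpropionic acid), and another that of plants grown on 50 µM L-AOPP together with 10 nM IAA (indole-3-acetic acid, the main natural auxin). The last was whole mock plants. Plants were sown on the agents, and the labels do not say whether plates with L-AOPP also held DMSO. Age is 4 days in the sample labels but 7 days in the series text. Nothing in the labels says whether the replicates were separate cultures, so the p-values reflect only how much these samples varied, and that may be technical variation.

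Most IAA in Arabidopsis is made from tryptophan in a pair of steps. Aminotransferases first turn tryptophan into indole-3-pyruvic acid, and YUC enzymes then oxidise this to IAA. The series text describes L-AOPP as an inhibitor of auxin synthesis, and it is known as a blocker of phenylalanine ammonia-lyase and of the aminotransferase step that supplies the YUC enzymes. YUC genes are transcribed in small, different sets of cells, and YUC2 and YUC4 act together with YUC1 and YUC6 in forming flowers and veins. YUC4 is known from young organ primordia and the shoot apex.

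Values are linear signal intensities made with MAS5, on which every array had been brought to a common scale, and differences are on the log2 scale from limma fits over all 12 arrays. A probe set was called at a Benjamini-Hochberg adjusted p below 0.05 over the 15922 probe sets tested. The table holds no detection calls, so a floor of 19.4, the 20th percentile of all signals, serves as a mark of dim signal. The signal of mock SAM replicate 3 on the 25S rRNA control was 164, against 5170 to 10331 on the other 11 arrays. GAPDH control probe sets give a log2 ratio of 3′ over 5′ signal, a sign of RNA integrity and labelling. This was 1.78 ± 0.36 (SD, n = 3) in mock SAM, 1.5 ± 0.12 under L-AOPP alone, 1.29 ± 0.06 when IAA was added and 0.97 ± 0.03 in whole plants. It was highest, at 2.1, on mock SAM replicate 3. The ratio did not overlap between whole plants (0.94 to 1.01) and the SAM arrays (1.24 to 2.1). Nor did it between L-AOPP with IAA (1.24 to 1.36) and the other SAM groups (1.39 or more). In those comparisons a fit with the ratio as covariate cannot tell RNA quality apart from tissue or treatment.

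YUC4 was higher in the dissected apex than in whole plants. In mock SAM the YUC4 signals were 228, 213 and 254 in replicates 1 to 3, with a mean of 231 ± 20.7 (SD, n = 3). In whole mock plants they were 29.7, 39.8 and 5.2, with a mean of 24.9 ± 17.8, and the value of 5.2 lies below the floor. The lowest SAM array was far above the highest whole-plant array. YUC4 was 12.6-fold higher in the SAM (log2 difference 3.66 ± 0.49 SE, 95% interval 2.61 to 4.7, limma adjusted p 7.88e-06). Whole plant replicate 3 carried part of that size, since without it the log2 difference was 2.75 (limma adjusted p 5.7e-09), and with all signals below the floor raised to it the difference was 3.02. With a pseudocount of 28.4 added to every signal it was 2.34 (limma adjusted p 2.11e-08), and 3.32 ± 1.06 after adjusting for the GAPDH ratio (0.0224).

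YUC2 differed from YUC4 in that it was lower in the apex than in whole plants. Its signals were 57.2, 64 and 24 in mock SAM (48.4 ± 21.4, SD, n = 3) and 71, 132 and 97.4 in whole mock plants (100.1 ± 30.5). The groups did not overlap, but 64 and 71 nearly met. YUC2 was 2.18-fold lower in the SAM (log2 difference -1.12 ± 0.36 SE, 95% interval -1.89 to -0.36, limma adjusted p 0.0114). The lowest value came from mock SAM replicate 3, the array with the low 25S rRNA control. Without that array the log2 difference was -0.68 (limma adjusted p 0.0641), and without whole plant replicate 2, the highest, it was -0.90 (0.0586), so both leave the difference short of the threshold. With the GAPDH ratio of each array as a covariate it was -0.13 (limma adjusted p 0.901).

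Both genes were thus called between the tissues, 1 in each direction. That comparison called 67.6% of all tested probe sets (42.6% higher and 25% lower in the SAM), and in 69.5% the groups did not overlap. Over all probe sets the median was 0.21, and both genes keep their sign relative to it. In these bulk samples fewer cells with a transcript and less transcript per cell cannot be told apart.

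**Figure D1:**
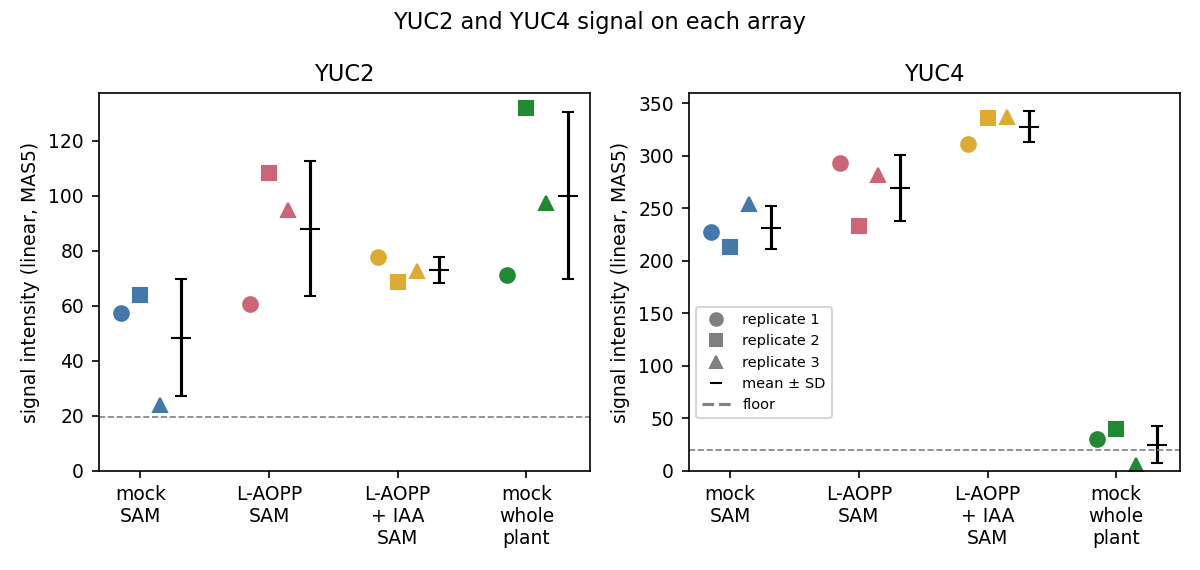
Linear signal of YUC2 (left) and YUC4 (right) on each array, with a column for each group, a point for each replicate, the mean ± SD beside the points and the floor of 19.4 as a dashed line. YUC4 lies between 213 and 337 on the 9 SAM arrays and at 39.8 or below in whole plants, while YUC2 lies between 24 and 132 on all 12 arrays.

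The log2 ratio of YUC4 to YUC2 within an array shows the same contrast without depending on the scale of the array. It ran from 1.73 to 3.4 in mock SAM and from -4.23 to -1.26 in whole plants, so the groups did not overlap. The means differed by 4.78, with an exact two-sided permutation p of 0.1, the smallest that 3 arrays against 3 allow, and of 0.4 after adjustment over the 4 comparisons. The difference was 3.87 without whole plant replicate 3, 4.15 with the floor and 3.1 with a pseudocount of 28.4, and the groups stayed apart in each. As the probes of the genes differ, the ratio says nothing about which transcript was more abundant in an array.

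L-AOPP versus mock asks whether YUC transcripts moved in the apex under an agent the series text describes as an inhibitor of auxin synthesis. The arrays do not measure auxin itself. YUC2 had signals of 60.7, 108 and 94.7 with L-AOPP (87.9 ± 24.6, SD, n = 3), against the 57.2, 64 and 24 of mock SAM. L-AOPP replicate 1 lay within the range of mock, and the other two L-AOPP arrays above it. The log2 difference was 0.94 ± 0.36 (SE, 95% interval 0.18 to 1.7), and it did not pass over all probe sets (limma adjusted p 0.188). Mock SAM replicate 3 sets much of this size as well: without it the log2 difference was 0.50 (limma adjusted p 0.511), and it was 0.60 with the GAPDH ratio as a covariate (0.689).

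YUC4 had signals of 293, 233 and 282 with L-AOPP (269 ± 31.8, SD, n = 3), which overlap the 213 to 254 of mock SAM. The log2 difference was 0.22 ± 0.49 (SE, 95% interval -0.83 to 1.26, limma adjusted p 0.87). Neither gene was called in this comparison, in which 2.56% of probe sets were called (1.22% higher and 1.34% lower). As folds of mock, the intervals run from 1.13 to 3.26 for YUC2 and from 0.56 to 2.4 for YUC4, which allows a fall as well as a rise of YUC4.

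The addition of IAA to L-AOPP was compared with L-AOPP alone. YUC2 had signals of 77.9, 68.5 and 72.6 with L-AOPP and IAA (73 ± 4.71, SD, n = 3). All of them lay inside the range of the L-AOPP arrays. The log2 difference was -0.23 ± 0.36 (SE, 95% interval -0.99 to 0.53, limma adjusted p 0.895).

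YUC4 had signals of 311, 336 and 337 with L-AOPP and IAA (328 ± 14.6, SD, n = 3). These were the highest YUC4 signals of the series, and all 3 lay above the highest L-AOPP array at 293. The log2 difference from L-AOPP was 0.29 ± 0.49 (SE, 95% interval -0.76 to 1.34, limma adjusted p 0.906). Groups did not overlap for 18.4% of all tested probe sets in this comparison, and 0.86% were called (0.276% higher and 0.584% lower).

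Against mock SAM, plants with L-AOPP and IAA had higher signals of both genes on every array, without overlap. For YUC2 the lowest of these arrays was 68.5 and the highest mock array 64, and for YUC4 they were 311 and 254. The log2 difference was 0.71 ± 0.36 for YUC2 (SE, 95% interval -0.05 to 1.48, limma adjusted p 0.314) and 0.51 ± 0.49 for YUC4 (-0.54 to 1.55, limma adjusted p 0.644). Neither was called, among 3.04% of probe sets that were (1.22% higher and 1.82% lower), and groups did not overlap for 20.8% of probe sets. Without mock SAM replicate 3 the YUC2 difference was 0.27 (limma adjusted p 0.768), and 0.11 after adjusting for the GAPDH ratio (0.991). These 3 comparisons share arrays and are not independent of each other.

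The precision of YUC4 in these tests was set outside the SAM. Its SD on the log2 scale was 0.13 in mock SAM, 0.18 under L-AOPP alone and 0.07 when IAA was added, but 1.59 in whole plants, and the fit over all arrays has 1 spread for the 4 groups. With the 9 SAM arrays alone, a fit added after the values were seen, its SE was 0.13 in place of 0.49. In that fit the log2 difference of YUC4 between L-AOPP with IAA and mock was 0.51 (95% interval 0.23 to 0.78, limma adjusted p 0.0567), close to the threshold but not past it, with 2.14% of probe sets called. On adding IAA to L-AOPP it was 0.29 (0.02 to 0.56, limma adjusted p 0.424) and for L-AOPP versus mock 0.22 (-0.06 to 0.49, limma adjusted p 0.42). For YUC2, with SDs of 0.77, 0.44 and 0.09 in the same order of SAM groups and 0.45 in whole plants, the SE stayed at 0.36.

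**Figure D2:**
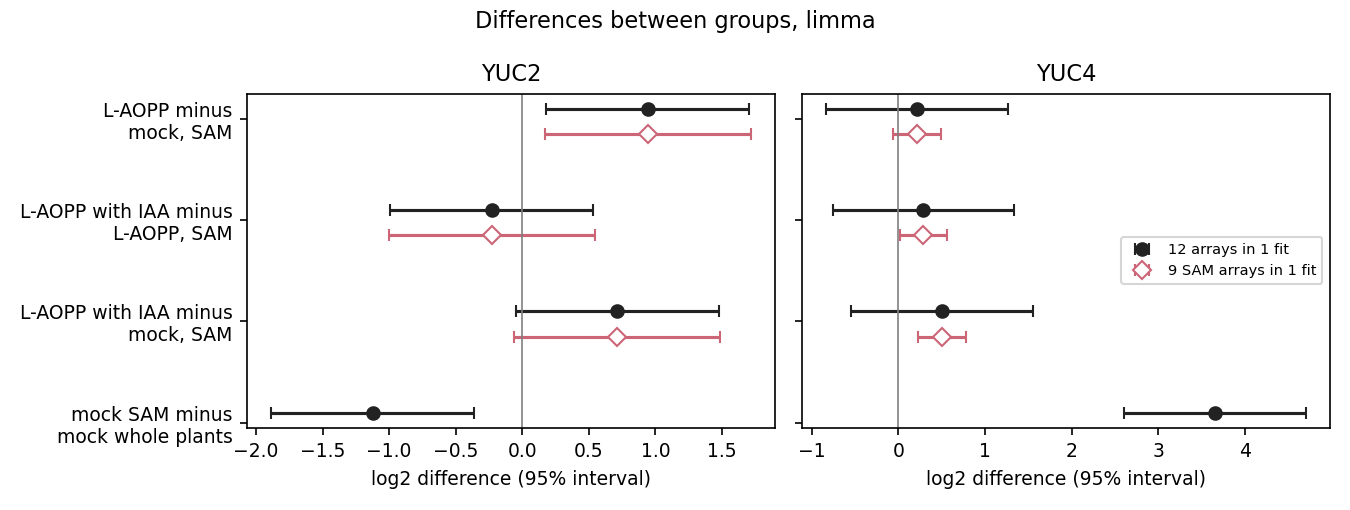
Log2 differences with 95% intervals for YUC2 (left) and YUC4 (right) in the 4 comparisons, from the fit over 12 arrays (filled circles) and over the 9 SAM arrays (open diamonds). The horizontal scales differ between the panels. The YUC4 interval for L-AOPP with IAA minus mock runs from -0.54 to 1.55 in the first fit and from 0.23 to 0.78 in the second.

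**Figure D3:**
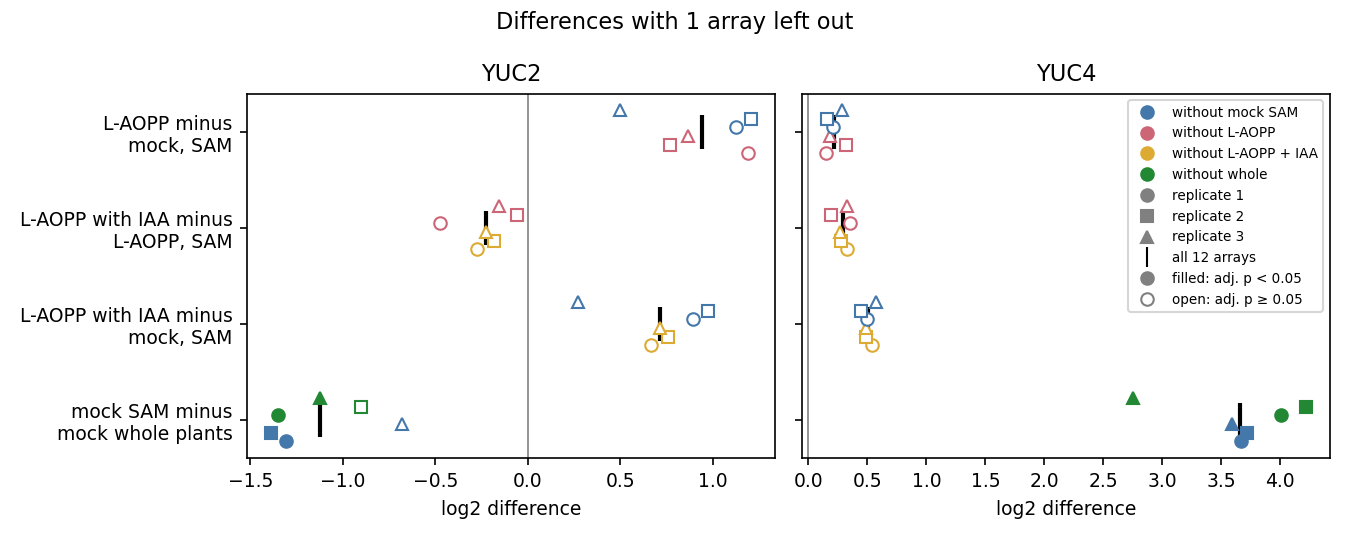
Log2 difference of YUC2 (left) and YUC4 (right) in each comparison when 1 array is left out, with colour for the group and shape for the replicate of that array, and a bar for all 12 arrays. Leaving out mock SAM replicate 3 (blue triangles) moves YUC2 from 0.94 to 0.50, from 0.71 to 0.27 and from -1.12 to -0.68. Leaving out whole plant replicate 3 (green triangle) moves YUC4 from 3.66 to 2.75.

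Within the SAM the ratio of YUC4 to YUC2 did not separate the treatments. Its log2 mean was 2.38 ± 0.90 (SD, n = 3) in mock, 1.65 ± 0.59 under L-AOPP alone and 2.17 ± 0.15 when IAA was added. The differences were -0.73 between L-AOPP and mock (exact two-sided permutation p 0.4), 0.52 on adding IAA (0.3) and -0.21 between both agents and mock (1), and the groups overlapped in all 3. Single arrays moved the first from -0.21 (without mock SAM replicate 3) to -1.05 (without mock SAM replicate 2). They moved the second from 0.25 (without L-AOPP replicate 2) to 0.83 (without L-AOPP replicate 1), where the groups did not overlap (exact permutation p 0.1, the smallest possible). The first was -1.04 without L-AOPP replicate 1, also without overlap (exact permutation p 0.2). The difference between both agents and mock was 0.30 without mock SAM replicate 3, again without overlap (exact permutation p 0.2). The value of 3.4 on mock SAM replicate 3 was the highest of the series.

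Ordered by mean signal, YUC2 was lowest in mock SAM (48.4), followed by L-AOPP with IAA (73), L-AOPP (87.9) and whole plants (100.1). No neighbours in this order differed by the limma test (adjusted p 0.314, 0.895 and 0.667), and of all 6 pairs of groups only mock SAM and whole plants did. YUC4 was lowest in whole plants (24.9), followed by mock SAM (231), L-AOPP (269) and L-AOPP with IAA (328). Only the first step in that order was called, and the SAM groups differed among themselves in no pair. Against whole plants, which differ from them in tissue and in treatment, the SAM with L-AOPP was higher in YUC4 by 3.87 ± 0.49 (log2, SE, limma adjusted p 4.56e-06) and that with L-AOPP and IAA by 4.16 ± 0.49 (2.11e-06). For YUC2 these differences were -0.18 ± 0.36 (limma adjusted p 0.667) and -0.41 ± 0.36 (0.322). The first of these comparisons called 67% of probe sets (42.1% higher and 24.9% lower) and the second 67.1% (42.4% and 24.7%).

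**Figure D4:**
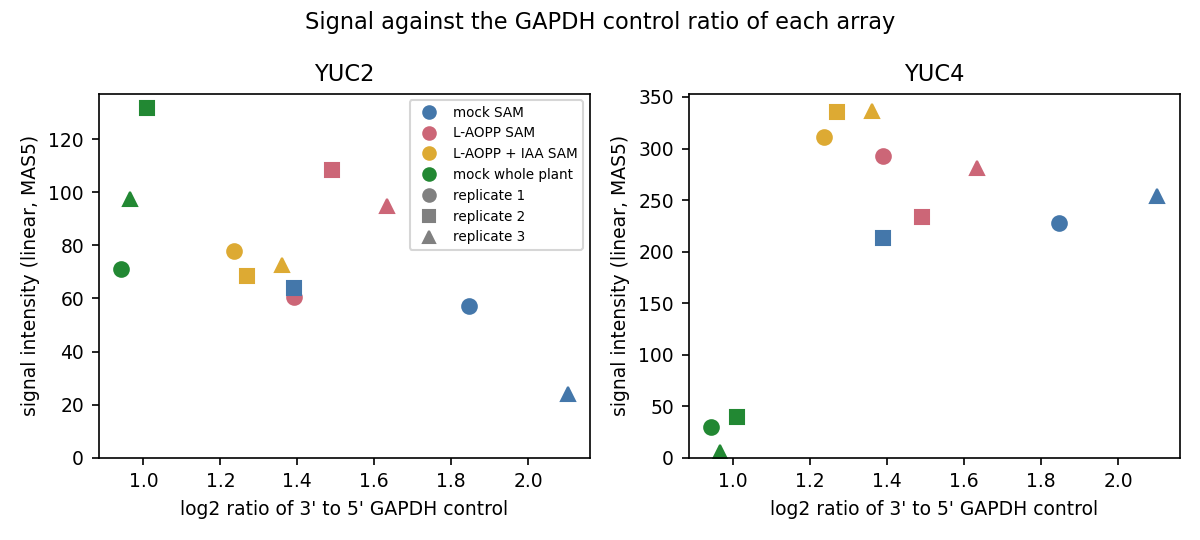
Linear signal of YUC2 (left) and YUC4 (right) on each array against the GAPDH control's 3′ over 5′ log2 ratio, coloured by group, with a shape for each replicate. The lowest YUC2 signal, 24, stands at the highest ratio, 2.1, while YUC4 on that array has a signal of 254.

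The other YUC genes to which the annotation assigned a probe set of their own were YUC6 and YUC11. Both were left out of the tests as dim. The annotation did not list 8730 probe sets, so a gene not named here may still have a probe set. YUC6 had signals from 2.2 to 42.4, below the floor on 9 of 12 arrays, and YUC11 from 2.2 to 39.6, below it on 6 of 12. Their levels could not be compared between groups. Of a list of 28 auxin synthesis genes these 4 YUC genes were the named ones on the array and YUC2 and YUC4 those tested. The lists on tryptophan synthesis and auxin transport had 0 genes that could be named.

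Genes that remove or store auxin lie downstream of the YUC step. Of 17 listed genes for auxin conjugation and inactivation 9 were named on the array and 7 tested. Between mock SAM and whole plants 3 were higher, the IAA-amido synthetase genes GH3.3 (log2 difference 3.19 ± 0.18 SE), GH3.5 (2.13 ± 0.17) and GH3.17 (1.88 ± 0.12), and 1 was lower, DAO2, a relative of the IAA oxidase gene DAO1. These are 4 of 7 called, where 67.6% of all probe sets were called, and the median over the 7 was 0.13, beside 0.21 over all probe sets. None was called for L-AOPP versus mock (median 0.01, beside -0.01; GH3.17 at -0.41 ± 0.12, limma adjusted p 0.0991) or on adding IAA to L-AOPP (median 0.15, beside 0.00; GH3.17 at 0.32 ± 0.12, 0.332). For L-AOPP plus IAA versus mock 1 of 7 was called, where 3.04% of all probe sets were, and the median was 0.16, beside 0.00: DAO2 rose by 0.71 ± 0.14 (limma adjusted p 0.0119), a call lost without L-AOPP with IAA replicate 2 (0.0552), without mock SAM replicate 3 (0.0529), with the 2 groups alone (0.0523) and after adjusting for the GAPDH ratio (0.583).

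Of 17 auxin response genes 7 were named and 4 tested. HAT2, an auxin-inducible homeodomain gene, was the only one called in the treatments, in the comparisons with mock that called 2.56% and 3.04% of all probe sets. It fell by 0.75 ± 0.14 on the log2 scale for L-AOPP versus mock (limma adjusted p 0.0115) and by 0.57 ± 0.14 for L-AOPP plus IAA versus mock (0.0387), and differed by 0.18 ± 0.14 between L-AOPP with IAA and L-AOPP (0.72). Both of its calls against mock were lost when single arrays were left out. The first ended on leaving out replicate 1 (0.0518) or 3 (0.0528) of L-AOPP, or replicate 1 (0.062) or 3 (0.0513) of mock. The second ended on leaving out replicate 2 (0.136) or 3 (0.0871) of L-AOPP with IAA, or replicate 1 (0.11) or 3 (0.146) of mock. After adjusting for the GAPDH ratio the adjusted p was 0.126 for the first and 0.804 for the second. The second call was lost in 10 of 19 alternatives. Among them were no intensity trend (limma adjusted p 0.0906), array weights (0.0812), the 2 groups alone (0.101) and the 9 SAM arrays alone (0.0566). The medians of the 4 genes were -0.23, 0.11 and -0.08 for the effect of L-AOPP, the addition of IAA, and both agents relative to mock, in that order, beside -0.01, 0.00 and 0.00 over all probe sets. In the SAM against whole plants IAA30 (2.11 ± 0.19) and HAT2 (0.66 ± 0.14) were higher. These are 2 of 4 called, where 67.6% of all probe sets were called (42.6% higher). The other tested genes, IAA18 (-0.13 ± 0.09) and IAA29 (-0.61 ± 0.34), were not called. The median over the 4 was 0.27, beside 0.21 over all probe sets.

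Of 11 genes known to act upstream of YUC genes in Arabidopsis, 2 were named on the array and SHI, of the SHI/STY family of zinc finger regulators, was tested. SHI was higher in mock SAM than in whole plants (1.56 ± 0.18, limma adjusted p 2.04e-06), where 42.6% of all probe sets were called higher. YUC4 was higher there too, and YUC2 lower. The differences of SHI were -0.12 ± 0.18 between L-AOPP and mock (limma adjusted p 0.807), -0.29 ± 0.18 on adding IAA (0.644) and -0.41 ± 0.18 between both agents and mock (0.258). None of these passed.

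The markers of the dissected part and of other tissues bear on the YUC contrast between tissues. Over all tested probe sets 42.6% were called higher in mock SAM than in whole plants and 25% lower. All 4 meristem and boundary genes named on the array were higher, among them CLV3 (3.24 ± 0.70), PHV (2.2 ± 0.11) and UFO (2.16 ± 0.22), and their summed signal was 1534 to 2021 against 341 to 409 in whole plants. All 4 photosynthesis genes were lower, among them PRK (-2.14 ± 0.08), SBPASE (-2.06 ± 0.08) and RCA (-1.08 ± 0.08), and their summed signal was 35082 to 37350 against 84627 to 96495. Both tested root genes were lower, EXPA18 (-3.46 ± 0.40) and PYK10 (-0.70 ± 0.07), with a sum over all 3 on the array of 14507 to 14743 against 22527 to 25379. PYK10 made up nearly all of that sum, with means of 14587 in mock SAM and 23734 in whole plants. No vascular gene of the list was named on the array. In the treatments no member of these lists was called. The differences of all 4 meristem and boundary genes were below 0 between L-AOPP and mock, at -0.91 ± 0.70 for CLV3, -0.80 ± 0.22 for UFO, -0.54 ± 0.25 for LAS and -0.25 ± 0.11 for PHV. The median was -0.67, beside -0.01 over all probe sets. On adding IAA to L-AOPP all 4 were above 0, with a median of 0.50 beside 0.00, and between both agents and mock the median was -0.05 beside 0.00. The L-AOPP arrays enter both the comparison with mock and that with IAA. Low signals on them would push these differences in opposite directions, so the opposite signs are not independent. The summed signal of the 4 genes was 1344 to 1389 under L-AOPP alone, below the 1534 to 2021 of mock without overlap. It was 1462 to 1787 when IAA was added. Between L-AOPP and mock, groups did not overlap for 22.8% of all tested probe sets (12.3% lower), a share of single probe sets and not of sums. PHV, which was not called, made up most of the sum, with means of 1322 in mock and 1103 under L-AOPP. The photosynthesis genes had medians of -0.05, -0.03 and -0.08 in the same order of comparisons. The tested root genes had medians of -0.25, 0.56 and 0.31. Within each list, taken in the order meristem, photosynthesis and root, the gene of smallest p between L-AOPP and mock was UFO, SBPASE (0.09 ± 0.08) and EXPA18 (-0.55 ± 0.40). On adding IAA it was UFO (0.79 ± 0.22), LHCB4.1 (-0.09 ± 0.07) and EXPA18 (1.00 ± 0.40). Between both agents and mock it was PHV (-0.10 ± 0.11), LHCB4.1 (-0.17 ± 0.07) and PYK10 (0.17 ± 0.07). The part of these markers in the YUC differences was not tested.

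Genes whose pattern was most like that of each member were sought among the other 8773 tested probe sets with a single gene, by the Pearson correlation of log2 signals. These correlations are descriptions of arrays that share tissue, treatment and RNA quality, and single arrays weigh heavily in them. For YUC4 over 12 arrays the closest were AT1G80060 (r = 0.98), the MADS-box flowering gene AGL24 (0.976), AT4G31615 (0.974), AT4G22280 (0.974) and AT5G55520 (0.972), and 638 genes had an r above 0.9. All 5 had their lowest signal on whole plant replicate 3, as YUC4 had. AGL24, for example, had signals of 149 to 174 in mock SAM and of 3.7 to 46 in whole plants. Without the pair of arrays farthest from the YUC4 median, whole plant replicates 1 and 3, r was 0.895 to 0.967. Whole plant replicate 2 stayed in, so the gap between tissues still enters these values. Spearman rank correlations over the 12 arrays were lower, from 0.51 (AGL24) to 0.867 (AT4G22280). Of the 5 genes, AT4G31615 lay below the floor on 3 arrays and AGL24 on 2.

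Within the 9 SAM arrays the genes most like YUC4 were AT2G17360 (r = 0.934), AT1G07650 (0.924), NRPB6B, for a subunit of RNA polymerases (0.924), the tubulin gene TUB1 (0.92) and NET4B, for an actin-binding protein (0.918). Only 9 genes had an r above 0.9. TUB1 had signals of 1147 to 1499 in mock, 1278 to 1510 under L-AOPP alone and 1783 to 1831 when IAA was added, so that, as for YUC4, the last group stood above the other SAM arrays. Without the 2 arrays farthest from the median, mock replicates 1 and 2, r was 0.826 to 0.957.

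For YUC2 over 12 arrays the closest were AT5G61570 (r = 0.929), AT4G38760 (0.922), AT4G33500 (0.914), AT5G52580 (0.904) and the phosphomannomutase gene PMM (0.892). Within the SAM they were AT5G01010 (0.951), AT1G24310 (0.945), AT1G78930 (0.942), AT5G26610 (0.94) and AT4G17020 (0.94). All 10 had their lowest signal on mock SAM replicate 3, where YUC2 was lowest too. Without that array r was 0.689 to 0.867 for the first 5 and 0.722 to 0.786 for the others. Without the 2 farthest arrays it was 0.53 to 0.769 and 0.539 to 0.856, so the likeness to YUC2 rests in large part on those arrays.

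**Figure D5:**
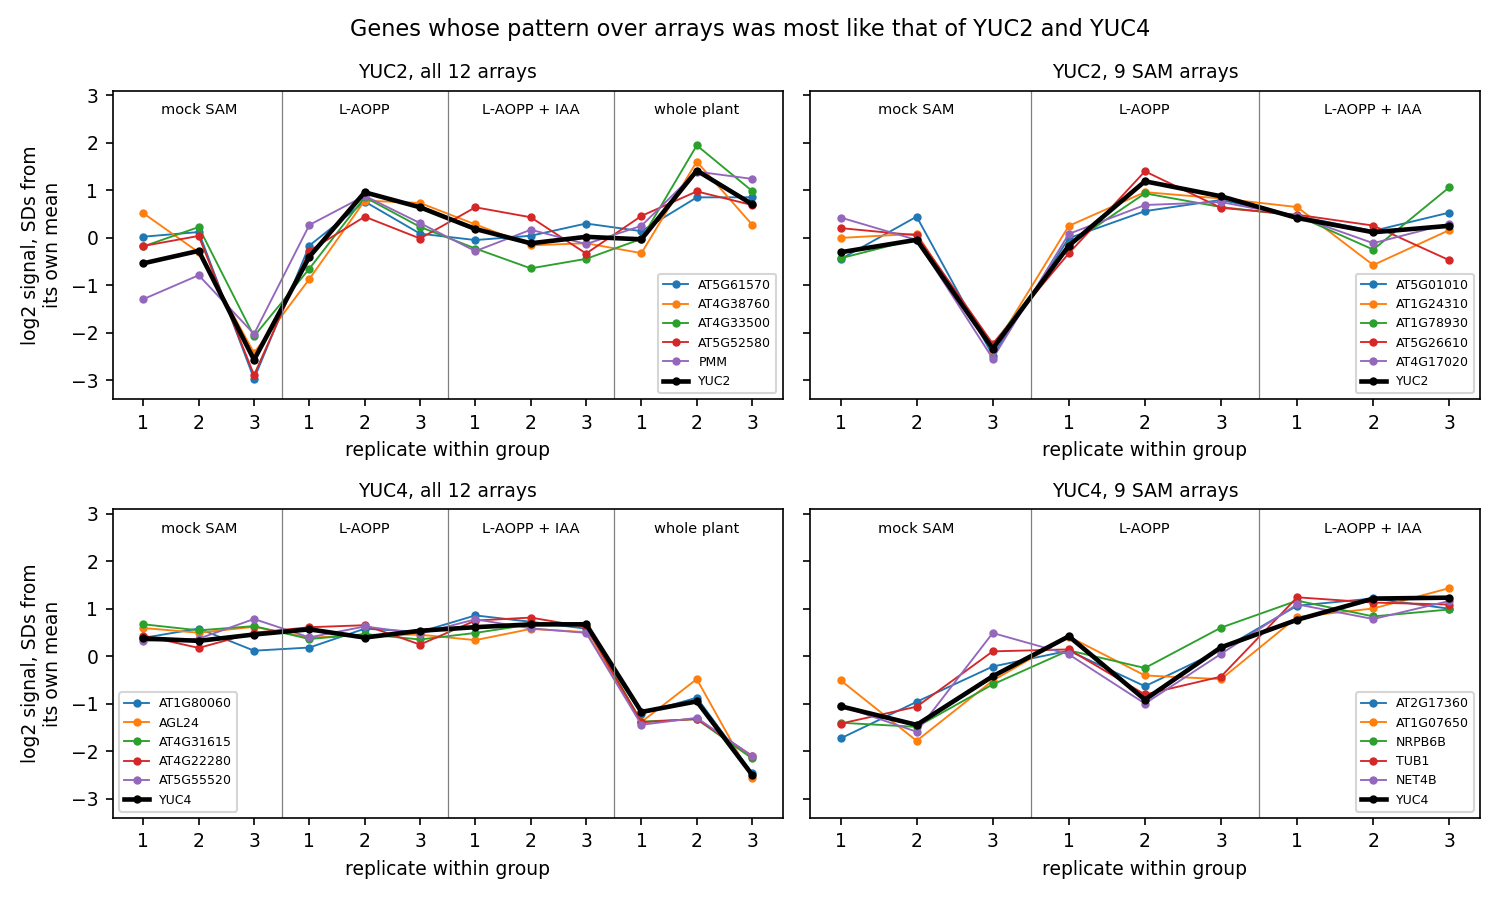
Log2 signal of YUC2 (top) and YUC4 (bottom) and of the 5 genes most like each, over 12 arrays (left) and the 9 SAM arrays (right), in SDs from each gene's own mean. Points are arrays in order of group and replicate number. YUC2 and the 10 genes like it dip together on mock SAM replicate 3, YUC4 and the 5 genes like it over 12 arrays drop in whole plants, and over the SAM arrays YUC4 and its 5 genes are highest with L-AOPP and IAA.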

How the data were processed

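The deposited table holds 1 signal intensity per probe set and array. The intensity values were made by the authors with MAS5, per the submitters' processing notes, with no version given. In the deposited intensity values the mean without the lowest and highest 2% was 500.0 to 500.1 on every array. From these, log2 was taken, 64 control probe sets were set aside and the 30% of the other 22746 with the lowest mean log2 (6824) were left out. Linear models with 1 coefficient per group came from limma 3.58.1 (lmFit, then eBayes with trend) under R 4.3.3, with 8 residual degrees of freedom. The fit was tested on simulated data with independent normal noise and the same spread of a probe set in every group. That test does not cover the unequal spread of YUC4 between groups or an outlying array. All tests were two-sided. Ratios of YUC4 to YUC2 were compared with exact permutation tests. The 3 arrays per group limit the precision. The members, lists and alternatives were chosen with earlier results of these data known. Named genes are the members, per list and comparison up to 3 called genes of the largest difference or the 1 of smallest p (DAO2 between tissues was added after its value was seen), and the 5 genes most like each member. Probe sets were named from the platform annotation, which gave 1 gene for 13513 and did not list 8730. Loci came from the gene table of TAIR10.1. No coordinates or sequences are used here.

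Alternative settings were a floor, a pseudocount (28.4), quantile normalization, median centring, no filter, a 50% filter, the 2 groups alone, a replicate block, no trend, robust eBayes, array weights, the GAPDH ratio as a covariate, each array left out and, added later, the 9 SAM arrays alone.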

Additional observations from a re-analysis of the deposited data

How the results depend on the processing

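For YUC2 and YUC4, 12 differences were refitted in 210 ways, of which 204 kept direction and side of the threshold. Most of the 12 were not called, and for those keeping the side means only that they stayed uncalled. The 50% filter removed both genes. The YUC2 difference between mock SAM and whole plants lost its call with the GAPDH covariate (-0.13) and without single arrays (range -1.39 to -0.68). That between the SAM with L-AOPP and whole plants, not called, turned with the covariate (0.47) and ranged from -0.41 to 0.063 with 1 array left out. The YUC4 to YUC2 ratio for L-AOPP plus IAA versus mock turned with the pseudocount (0.015) and ranged from -0.53 to 0.30 with 1 array left out. The cause was not tested. Of 582 refits of the 32 list results named, 556 kept direction and side, 21 lost the call, 2 gained it and 3 turned: PHV for L-AOPP plus IAA versus mock with the covariate (0.0054) and without mock replicate 1 (0.0030), and EXPA18 for L-AOPP versus mock without L-AOPP replicate 3 (0.027; range with 1 array left out -1.10 to 0.027). CLV3 (2.07) and HAT2 (0.30) lost their calls between tissues with the covariate.

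The replicate block changed no call of YUC2 or YUC4 (YUC2 between tissues -1.12, limma adjusted p 0.0114) and ended that of HAT2 for L-AOPP plus IAA versus mock (0.0604). A pairing of arrays by number was not visible, though weak correlation cannot exclude a shared origin. Same-numbered arrays correlated at -0.19 to 0.11 in their deviations, 2 of 18 pairs above 0.1, and 2 of 12 arrays correlated best with their own number.

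Counts of called probe sets moved by more than 1.5 times. From 408 for L-AOPP versus mock they went to 47 with the covariate, 122 without the trend and 88 to 585 with 1 array left out. From 137 on adding IAA to L-AOPP they went to 23 without the trend, 66 with the 2 groups alone, 70 with the covariate, 85 with the 50% filter, 89 with the SAM arrays, 240 with array weights and 28 to 207 with 1 array left out. From 484 for L-AOPP plus IAA versus mock they went to 7 with the covariate, 134 with the 2 groups alone, 175 without the trend and 167 to 529 with 1 array left out. From 10760 between tissues they went to 6256 with the covariate. Median centring moved the split between tissues from 6787 higher and 3973 lower to 5680 and 4727, and the signals of YUC4 below the floor limit its fold.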
